A study of Mus musculus with 12 samples.

Results

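The miR-183 cluster is a group of 3 miRNAs, mmu-miR-183, mmu-miR-96 and mmu-miR-182, that are cut from neighbouring hairpins. Its members were taken from the deposited intensity table by exact match of the miRNA ID, guide strands only, and all 3 were found among the 710 mouse miRNAs of the table. The study profiled peripheral blood of 12 mice on a miRNA array, 6 Tff3 knockouts and 6 wild types, each group with 3 males and 3 females per the labels. Trefoil factor 3, the product of Tff3, is a small protein of mucus made mainly by intestinal goblet cells, and the text on the design speaks of a knock-down where the labels speak of a knockout. The labels give no strain, age or allele and no treatment of either group, and Tff3 mRNA is not measured by a miRNA array. Per the labels' protocols the blood was spun and the supernatant discarded, so the RNA was prepared from the pellet. What the pellet still held of plasma was not measured.

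A miRNA guides a silencing complex to messenger RNAs that pair with its seed, bases 2 to 8 of the mature strand, and lowers their translation and stability. The 3 miRNAs of this cluster are made together in photoreceptors, hair cells of the inner ear and other sensory cells, where they are among the most abundant miRNAs. Changes in the seed of miR-96 cause hearing loss in mice and humans. In immune cells miR-182 is induced in helper T cells by interleukin 2 and lowers Foxo1, a transcription factor that holds T cells at rest, and the cluster has been studied in T helper cells of the Th17 type.

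The sequences show how closely the members resemble each other, which bears on how well an array can tell them apart. They are from RefSeq, build GRCm38.p6, 5′ to 3′, with the seed in capitals, and all lie on the minus strand of chromosome 6. The older IDs of the array were matched to the 5p arm of each hairpin, and miR-183* to the 3p arm of Mir183.
mmu-miR-183 (chr6:30169711-30169732): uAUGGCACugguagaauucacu
mmu-miR-96 (chr6:30169506-30169528): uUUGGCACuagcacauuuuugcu
mmu-miR-182 (chr6:30165962-30165986): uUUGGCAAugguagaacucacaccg
miR-183* (chr6:30169672-30169693): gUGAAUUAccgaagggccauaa

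With positions counted from 1 at the 5′ end, miR-96 differs from miR-183 in its first 8 bases by A2U alone, and miR-182 differs from miR-96 there by C8A alone. miR-96 and miR-182 share their first 7 bases, UUUGGCA. From base 9 on, another pair is the most alike. Set side by side without gaps, miR-183 and miR-182 are identical there at 12 of 14 bases and share the run UGGUAGAA from base 9, whereas miR-183 and miR-96 are identical at 6 of 14 and miR-96 and miR-182 at 5 of 15. Over the whole strand the pairs are identical at 18 of 22, 13 of 22 and 12 of 23 bases in the same order. Of 1679 mouse mature miRNAs in the RefSeq table, 3 hold the bases UUGGCA at positions 2 to 7, namely miR-96, miR-182 and miR-1271, and miR-1271 also shares base 8 with miR-96. No reading of miR-1271 was analysed here. The bases AUGGCA at these positions belong to miR-183 alone in that table.

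The hairpin of miR-183 is shown because both of its strands were measured. It covers 70 bases at chr6:30169668-30169737 on the minus strand, and the capitals mark the arms, with miR-183 on the left and miR-183* on the right.
Mir183: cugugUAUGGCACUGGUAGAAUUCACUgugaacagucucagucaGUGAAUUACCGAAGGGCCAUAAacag

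Mir183 and Mir96 are separated by 116 bases and Mir96 and Mir182 by 3453, so the 3 hairpins span 3820 bases. In the RefSeq annotation of that assembly they lie within Mirc35hg, a long non-coding RNA gene, and the nearest protein-coding genes are Nrf1, on the side of Mir182, and Ube2h, on the side of Mir183.

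The arrays differed in brightness before normalization. The median intensity of the 710 miRNAs ran from 72 to 188 on a linear scale, with the highest median on knockout array 2, and summed intensity ran from 391740 to 1111471. In all, 3.31% of the readings lay below 0, as readings do after background subtraction, a step that no label states. Some markers of blood cells were bright on every array. The red cell miRNA miR-486 never fell below the 99.7th percentile of its array, the lymphocyte miRNA miR-150 not below the 92.0th and the neutrophil miRNA miR-223 not below the 90.3rd. Other markers were dim on some arrays. The lymphocyte marker miR-181a fell to the 46.5th percentile, miR-181b to the 11.9th and a myeloid marker to the 4.0th. The 6 wild-type columns of the intensity table are numbered 7 to 12 and carry no sex, so they are called arrays 7 to 12 here. The protocol speaks of blood taken from each animal, so each array was treated as 1 mouse.

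All 3 members read dim in blood, mostly below the median miRNA of the array. miR-183, the first hairpin of the cluster in the direction of transcription, read 88, 140, 8, 40, 52 and 36 on knockout arrays 1 to 6, against 64, 76, 108, 44, 64 and 76 on wild-type arrays 7 to 12. It lay below the array's median on 12 of 12 arrays, with its lowest reading on knockout array 3 and its highest on knockout array 2, the brightest by median. miR-96, the member with the link to hearing, read 64, 160, 32, 76, 64 and 80 in knockouts, against 56, 68, 80, 76, 116 and 132 in wild types. It was below the median on 10 arrays, equal to it on wild-type array 10 and above it on wild-type array 11. miR-182, the member induced in activated helper T cells, read 80, 232, 60, 88, 72 and 48 in knockouts, against 80, 76, 100, 72, 64 and 156 in wild types. It too was below the median on 10 arrays and exceeded it on knockout array 2 and wild-type array 12. The array has no negative controls in the table, so the size of each array's lowest reading, between 24 and 64, was taken as a yardstick of noise. Of the 36 readings of the members, 32 exceeded it, and the 4 that did not were miR-183 and miR-96 on knockout array 3 and miR-183 and miR-182 on wild-type array 11. The share of all miRNA readings that exceeded it is not given beside this count. The count therefore does not show by itself that the members are expressed in blood. All 36 readings of the members are multiples of 4, as are 91.0% of all readings, so intensity came in coarse steps at this end of the scale.

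**Figure D1:**
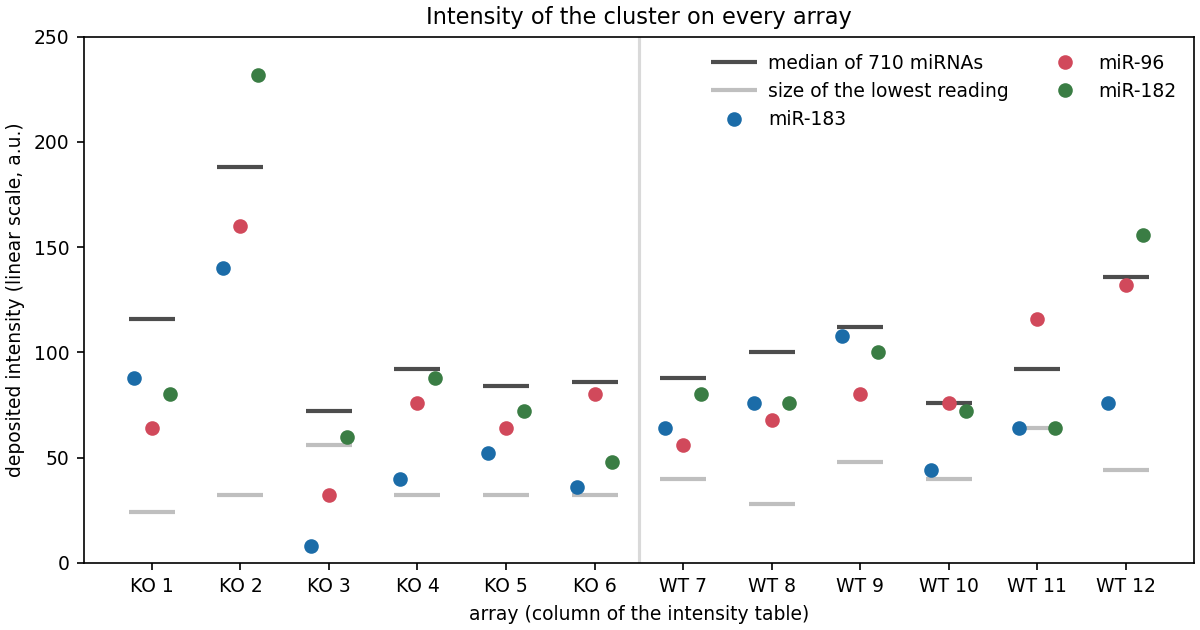
Deposited intensity (linear scale) of miR-183, miR-96 and miR-182 on each of the 12 arrays, knockouts left of wild types; dark bars give the array's median over 710 miRNAs and light bars the size of its lowest reading. Of 36 readings, 32 lie below the median, and all 3 members are highest on knockout array 2, at 140, 160 and 232.

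Levels were compared after quantile normalization, as log2(normalized intensity + 50), a scale on which an intensity of 0 has a level of 5.64. Ordered by mean level over 12 arrays, miR-182 stood at 7.13, miR-96 at 7.05 and miR-183 at 6.82, ranks 382, 412 and 502 of 710, against a median of 7.21 over all miRNAs. This is an order of signals and not of amounts, since each capture probe responds in its own way. The order was not kept from array to array. miR-182 was the highest of the 3 on 6 arrays, miR-96 on 3 and miR-183 on 2, and miR-183 and miR-182 were level at the top on wild-type array 8. miR-183 was the lowest on 7 arrays and miR-96 on 4, and miR-183 and miR-182 were level at the bottom on wild-type array 11. The gap between the highest and the lowest member ran from 0.09 to 0.99, the widest on knockout array 3, where miR-183 dropped to the 8.24th percentile.

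The design's comparison is between blood without and with Tff3. No member of the cluster differed beyond the spread between mice: each had a slightly lower mean in knockouts, the groups overlapped for all 3, and no difference passed. With limma 0 of 710 miRNAs (0%) passed an adjusted p of 0.05, by the exact permutation test of each over the same arrays 0 passed too, and 64 in limma's fit (9.01%) and 61 by permutation had an unadjusted p under 0.05, with no member among them. Groups that do not overlap occurred in 0.704% of miRNAs. A lower mean is also common, since 50.6% of all miRNAs had one, with a median difference of -0.0015 against -0.15 over the 3 members. In bulk blood, fewer cells of a type and less miRNA per cell cannot be told apart.

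Some blood cell markers had larger differences between the genotypes than the members did, though no marker passed. Of the 4 lymphocyte markers 3 had a lower mean in knockouts, each with an unadjusted p under 0.05, and the median of the 4 was -0.75. The 3 were miR-181a, at -1.08 (limma's adjusted p 0.14), miR-181b, at -0.89 (limma's adjusted p 0.14), and miR-342-3p, at -0.60 (limma's adjusted p 0.53), while miR-150 was at 0.16 (limma's adjusted p 0.89). The lists were chosen with earlier results of these data known, and limma's unadjusted p of miR-181a, 0.000875, was the lowest over all miRNAs. The count of 3 and the median of -0.75 are thus a description, and a shift in lymphocytes was not tested. The array means of the lymphocyte markers ran from 8.19 to 9.43 in knockouts and from 9.27 to 10.06 in wild types. Of the 3 red cell markers 1 had a higher mean in knockouts, miR-144, at 1.02 (limma's adjusted p 0.41), with the list's array means at 11.81 to 12.95 in knockouts and 11.42 to 12.39 in wild types. The 3 myeloid markers all had a higher mean in knockouts, with a median of 0.18, and array means of 9.11 to 9.77 in knockouts and 8.38 to 10.16 in wild types. The part of these cells in the members' values was not tested.

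mmu-miR-183 had levels of 7.02, 6.93, 6.12, 6.56, 6.89 and 6.57 on knockout arrays 1 to 6, against 7.06, 7.03, 7.21, 6.76, 6.92 and 6.73 on wild-type arrays 7 to 12. Of the knockouts 5 lay below the wild-type mean, and 3 lay within the range of the wild types and 3 under it. Knockouts averaged 6.68 ± 0.34 and wild types 6.95 ± 0.19 (± SD over 6 arrays each). On the log2 scale the difference was -0.27 ± 0.17 (standard error), with a 95% interval of -0.62 to 0.09 and limma's adjusted p of 0.67. The interval allows a ratio of 0.649 to 1.07 on this scale. Without knockout array 3 the difference of miR-183 was -0.15, with limma's adjusted p of 0.82.

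mmu-miR-96 had levels of 6.75, 7.07, 6.70, 7.11, 7.04 and 7.20 in knockouts, against 6.95, 6.95, 6.87, 7.24, 7.51 and 7.23 in wild types. Wild-type arrays 10 to 12 held the 3 highest levels of all, and the other 3 wild types lay inside the range of the knockouts. Knockouts averaged 6.98 ± 0.21 and wild types 7.13 ± 0.24 (± SD over 6 arrays each). On the log2 scale the difference was -0.15 ± 0.15 (standard error), with an interval of -0.48 to 0.18 and limma's adjusted p of 0.83. The difference was -0.07 without wild-type array 11 and -0.09 without knockout array 3. With wild-type arrays 7 and 8 as the only wild types it turned to 0.03 (limma's adjusted p 0.97). In the authors' value table, described below, the 3 highest wild types for miR-96 are the 3 females. The split among the wild-type arrays and the difference by sex thus rest on the same readings. Arrays 7 and 8 are not among those 3 highest, so by the match of ranks between the tables both are males. The fit with arrays 7 and 8 alone therefore set knockouts of both sexes against male wild types only. The part of sex in its result was not tested.

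mmu-miR-182 had levels of 6.93, 7.51, 7.12, 7.22, 7.11 and 6.75 in knockouts, against 7.20, 7.03, 7.12, 7.19, 6.92 and 7.44 in wild types. The highest and the lowest of the 12 were both knockouts, arrays 2 and 6. Knockouts averaged 7.11 ± 0.26 and wild types 7.15 ± 0.18 (± SD over 6 arrays each). On the log2 scale the difference was -0.04 ± 0.15 (standard error), with an interval of -0.37 to 0.28 and limma's adjusted p of 0.94. The direction turned without knockout array 6 or without wild-type array 12, to 0.03 and 0.02.

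These intervals are narrower than most. They reached 0.36, 0.33 and 0.32 to either side for miR-183, miR-96 and miR-182, against a median of 0.40 over all miRNAs. In wild types the SD of each member was below the median SD of 0.35 over all miRNAs, and in knockouts only miR-183, with 0.34, exceeded the median of 0.28. An offset of 50 damps differences at such low intensities. With an offset of 1 the log2 differences were -0.53 for miR-183, -0.24 for miR-96 and -0.07 for miR-182, with limma's adjusted p of 0.70, 0.79 and 0.92.

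**Figure D2:**
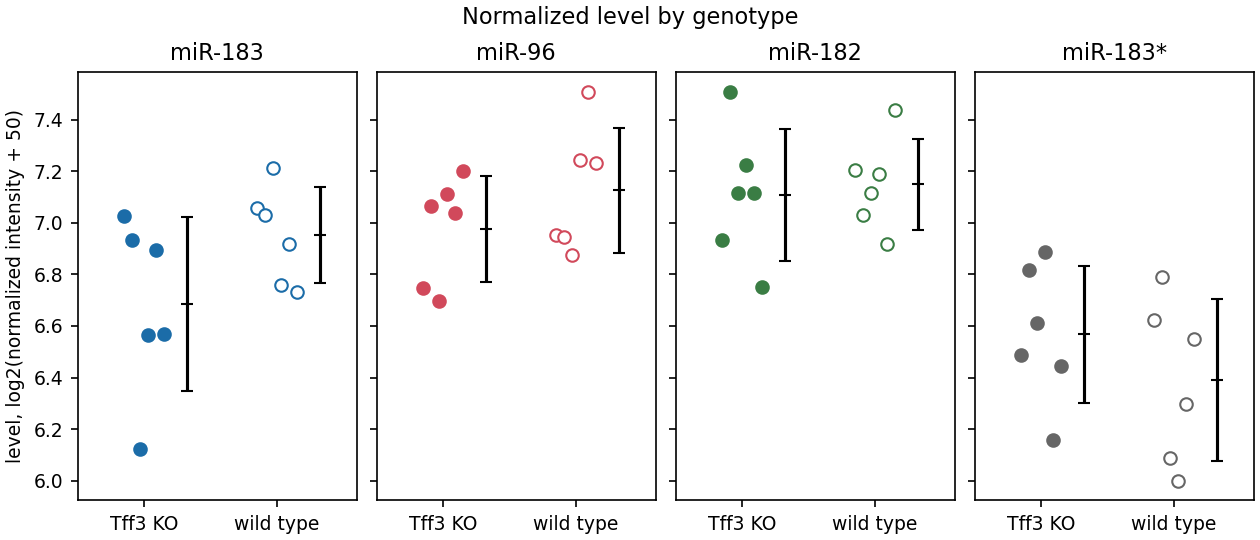
Level of each member and of miR-183*, the strand opposite miR-183, on every array, with Tff3 knockouts (filled) left of wild types (open); bars give the mean and SD of 6 arrays. The groups overlap in every panel, and knockout array 3 is the lowest point of miR-183 at 6.12.

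**Figure D3:**
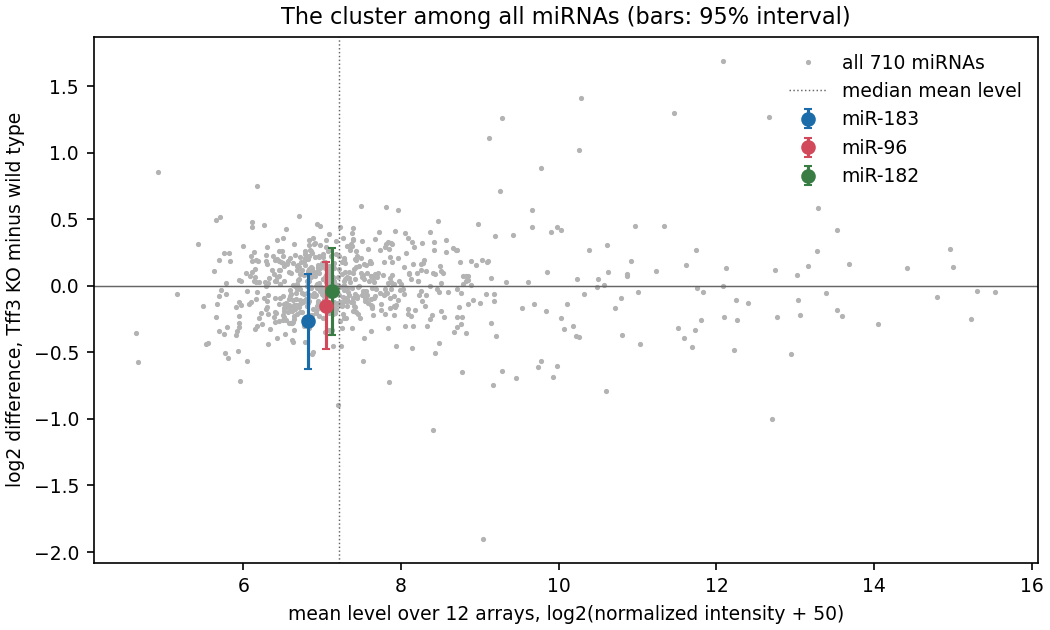
Log2 difference, knockout minus wild type, against mean level for all 710 miRNAs (grey) and the 3 members (coloured, with 95% intervals). The members sit left of the median level of 7.21 and each interval includes 0.

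The passenger strand miR-183*, made from the same hairpin as miR-183 and usually degraded, was dimmer still. It read 4 to 124 over the 12 arrays, below the array's median on each, and exceeded the yardstick of noise on 5. Knockouts averaged 6.57 ± 0.27 and wild types 6.39 ± 0.31 (± SD over 6 arrays each), which is a difference of 0.18 ± 0.18 (standard error) on the log2 scale, with limma's adjusted p of 0.83. The mean difference thus pointed the other way from that of its guide strand, neither passed, and the difference between the strands was not tested.

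One question that a cluster of miRNAs raises is whether its members vary together from mouse to mouse. After quantile normalization they did not do so detectably. Over 12 arrays miR-183 and miR-96 had a Pearson r of 0.050 (permutation p 0.88) and a Spearman rho of -0.30 (permutation p 0.34), and r was -0.61 without the 2 arrays farthest from the median of miR-183. For miR-183 and miR-182 r was 0.032 (permutation p 0.92) and rho -0.067 (permutation p 0.84), with an r of 0.12 without the 2 farthest arrays. For miR-96 and miR-182 r was -0.0089 (permutation p 0.98) and rho 0.077 (permutation p 0.81), with an r of 0.27 without the 2 arrays farthest from the median of miR-96. Adjusted over the 3 pairs by Benjamini-Hochberg, p was 0.98 for every r and 0.84 for every rho. Scaled to each array's 75th percentile instead, the levels gave an r of 0.43, 0.37 and 0.44 for the same pairs, with an adjusted permutation p of 0.24 for each, so the size of r depended on the normalization and passed under neither.

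Taken alone, the genotypes gave Pearson r of opposite signs, positive for all 3 pairs in knockouts and negative for all 3 in wild types, and none passed. Spearman's rho did not show this contrast, since it was negative for all 3 pairs in both genotypes. Within the 6 knockouts r was 0.21, 0.15 and 0.034 for miR-183 with miR-96, miR-183 with miR-182 and miR-96 with miR-182, with exact permutation p-values of 0.70, 0.79 and 0.94. Within the 6 wild types r was -0.69, -0.47 and -0.15, with exact permutation p-values of 0.14, 0.36 and 0.79. The most negative of them, for miR-183 and miR-96, adjusted to 0.43 over the 3 pairs. For the same pairs in the same order rho was -0.029, -0.14 and -0.086 in knockouts. In wild types rho was -0.71, -0.31 and -0.086.

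Without normalization the readings, as log2(intensity + 50), did vary together, on arrays whose medians ran from 72 to 188. There r was 0.68 for miR-183 and miR-96, 0.70 for miR-183 and miR-182 and 0.72 for miR-96 and miR-182, with an adjusted permutation p of 0.016 for each, and rho was 0.43, 0.75 and 0.41, with adjusted permutation p-values of 0.18, 0.019 and 0.18. Knockout array 2 held the highest reading of each member and also the highest array median. Without it r was 0.52, 0.54 and 0.51, and the adjusted permutation p was 0.12 for each. The pair of miR-183 and miR-96 was also lost without knockout array 3 (r 0.48, adjusted permutation p 0.13), and that of miR-96 and miR-182 without wild-type array 12 (r 0.66, adjusted permutation p 0.052). By genotype the 3 r were 0.84, 0.80 and 0.82 in knockouts, with an adjusted exact permutation p of 0.078 for each, and 0.092, 0.44 and 0.50 in wild types, with adjusted exact permutation p-values of 0.88, 0.54 and 0.54. Without the 2 arrays farthest from the median of the first member of each pair, r was 0.088, 0.51 and 0.45. On knockout array 2 the members read 0.745, 0.851 and 1.23 times the array's own median for miR-183, miR-96 and miR-182, so relative to the array only miR-182 was above it. The part of array brightness in these correlations was not tested. No r of other miRNA pairs before normalization is given beside them, so they show nothing particular to the cluster.

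**Figure D4:**
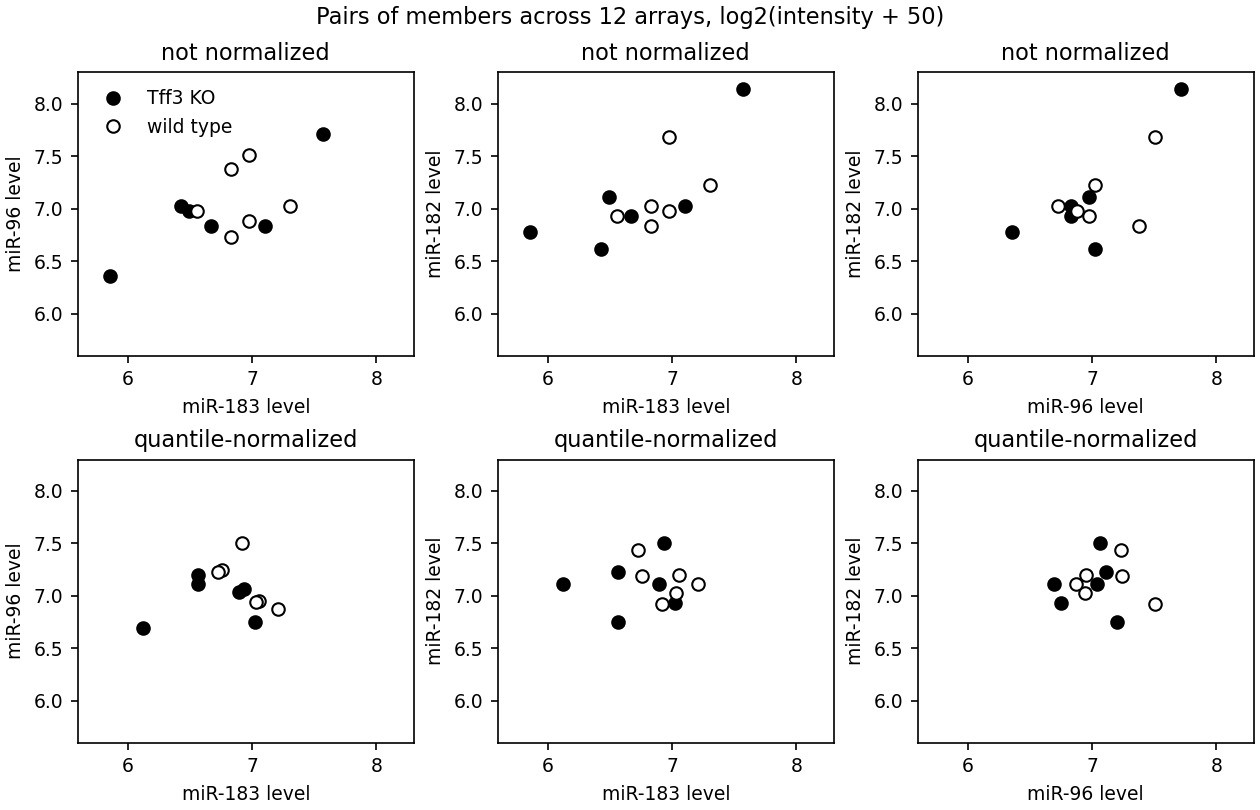
Levels of the 3 pairs of members on 12 arrays as log2(intensity + 50), before normalization in the upper row and after quantile normalization in the lower row, with knockouts filled and wild types open. In the upper row knockout array 2 is at the upper right of each panel and r is 0.68 to 0.72, and in the lower row r is -0.0089 to 0.050.

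The miRNAs whose pattern was most like a member's over the 12 arrays were not the other members. For miR-183 the highest Pearson r belonged to miR-1904 (0.80), miR-293* (0.78) and miR-770-5p (0.74), and miR-96 and miR-182 ranked 309 and 326 among 709. For miR-182 it belonged to miR-467a (0.72), miR-219 (0.69) and miR-691 (0.65), with miR-183 and miR-96 at ranks 333 and 387. For miR-96 it belonged to miR-214 (0.84), miR-342-3p of lymphocytes (0.81) and miR-122 of hepatocytes (0.79), with miR-183 and miR-182 at ranks 329 and 371. The neighbours of miR-183 and miR-182 had mean levels of 6.76 to 7.66, close to those of the members, while miR-214, miR-342-3p and miR-122 stood at 9.14, 9.98 and 9.04. These are the extremes of a long list of correlations over 12 arrays that share their normalization, and they are given as a description.

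Over all 12 mice miR-96 had the largest difference between the sexes of the 3 members, though it did not pass over all miRNAs. The authors' value table, which holds normalized intensities with a column for every labelled mouse, gives a sex for the wild types as well, and levels there are log2(value + 50). miR-96 was at 7.09, 7.02 and 7.18 in knockout females, against 6.73, 7.04 and 6.67 in knockout males. In wild types it was at 7.23, 7.49 and 7.21 in females and 6.93, 6.92 and 6.86 in males. Every wild-type female exceeded every wild-type male, and 2 of 3 knockout females exceeded every knockout male. Means were 7.10 ± 0.08 in knockout females and 6.82 ± 0.20 in knockout males, and 7.31 ± 0.15 in wild-type females and 6.90 ± 0.04 in wild-type males (SD, n = 3 each).

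Over both genotypes the female minus male difference of miR-96 was 0.34 with a standard error of 0.12 and a 95% interval of 0.09 to 0.59. limma's unadjusted p was 0.011 and its adjusted p 0.27. At an adjusted p of 0.05, 0.141% of miRNAs were called. An unadjusted p under 0.05 was common, at 12.3% of miRNAs and 6.48% in the direction of miR-96, which ranked 27 of 710 by p. Wild-type females lay wholly above wild-type males in 7.89% of miRNAs. Within wild types alone the difference was 0.40 (standard error 0.19, limma's adjusted p 0.48), and within knockouts, from the intensity table, it was 0.28 (standard error 0.19, limma's adjusted p 0.76). The interaction of sex and genotype was -0.12 with a standard error of 0.24 and limma's adjusted p of 0.89, and it was -0.0092 without knockout 2.

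The other members did not share the direction of miR-96. miR-183 was at 6.54, 6.87 and 6.54 in knockout females, against 7.01, 6.91 and 6.07 in knockout males. In wild types it was at 6.74, 6.90 and 6.71 in females and 7.03, 7.01 and 7.19 in males. The 3 wild-type females all lay below the 3 males, as they did in 7.18% of miRNAs, whereas knockout male 3, the mouse with the lowest reading, lay below every female. Over both genotypes the difference was -0.15 with a standard error of 0.16, an interval of -0.50 to 0.19 and limma's adjusted p of 0.69. Knockout male 3 weighed on this value. Without it the difference of miR-183 was -0.30 (limma's unadjusted p 0.028, adjusted p 0.31), close in size to the 0.32 of miR-96 without the same mouse, and without knockout 1 it was -0.093. miR-182 was at 7.20, 7.09 and 6.73 in knockout females, against 6.91, 7.49 and 7.09 in knockout males. In wild types it was at 7.17, 6.90 and 7.42 in females and 7.18, 7.01 and 7.09 in males. The sexes overlapped in both genotypes, and the difference was -0.05 with a standard error of 0.14, an interval of -0.36 to 0.26 and limma's adjusted p of 0.92. The interaction of sex and genotype was 0.29 for miR-183 and -0.22 for miR-182, with limma's adjusted p of 0.82 and 0.85. Without knockout 3 that of miR-183 was -0.011, and without knockout 2 that of miR-182 was -0.060. Within the knockouts of the intensity table the female minus male difference was -0.02 for miR-183 and -0.16 for miR-182, with limma's adjusted p of 0.99 and 0.84.

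**Figure D5:**
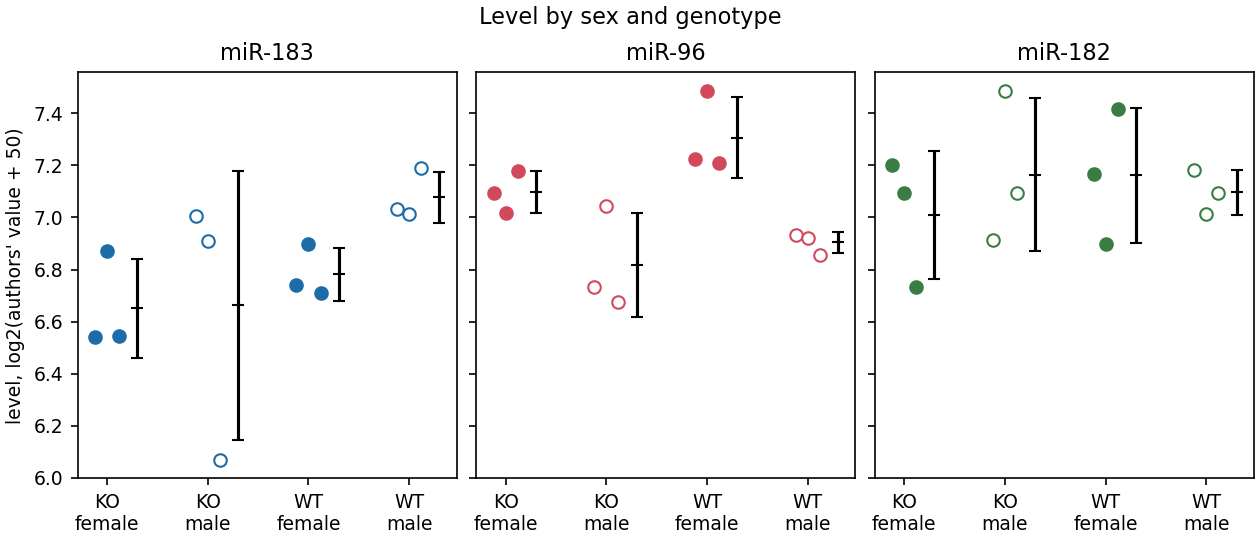
Level of each member in the authors' value table, log2(value + 50), by genotype and sex with females (filled) left of males (open); bars give the mean and SD of 3 mice. For miR-96 the 3 wild-type females, at 7.21 to 7.49, are above the 3 wild-type males, at 6.86 to 6.93.

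Among markers of other tissues and cells 1 passed for sex. miR-122, the liver miRNA among the nearest patterns to miR-96, was at 9.38 ± 2.40 in knockout females and 6.67 ± 0.01 in knockout males, and at 11.93 ± 0.65 in wild-type females and 7.76 ± 0.75 in wild-type males (SD, n = 3 each), a difference of 3.44 with limma's adjusted p of 0.036. It was the 1 miRNA called for sex over both genotypes. The count of calls was 0 without knockout 1, without knockout 2 or without any 1 of the wild types, and 5 without knockout 3. The other marker lists held no call. Of the 4 lymphocyte markers 4 had a higher mean in females, of the 3 myeloid markers 0, of the 3 red cell markers 0 and of the 3 muscle markers 3. In the same order 2, 2, 1 and 2 markers had limma's unadjusted p under 0.05, against 12.3% of all miRNAs. The other nearest patterns to miR-96 were also higher in females. miR-342-3p differed by 0.83 (limma's unadjusted p 0.00073, adjusted p 0.097) and miR-214 by 0.29 (limma's unadjusted p 0.049, adjusted p 0.38). The array means of the lymphocyte markers ran from 8.91 to 9.91 in females and from 8.12 to 9.47 in males, and those of the myeloid markers from 8.26 to 9.29 in females and from 9.10 to 10.03 in males. Those of the red cell markers ran from 11.29 to 11.93 in females and from 11.61 to 12.74 in males, and those of the muscle markers from 6.85 to 7.86 in females and from 6.65 to 7.31 in males. The sexes overlapped in each of these 4 ranges. Males are mice 1 to 3 and females mice 4 to 6 in both genotypes, so sex and the order of mice cannot be told apart, and the part of these cells and tissues in the values of miR-96 was not tested.

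Lists of miRNAs from settings in which the cluster is known gave no called member for genotype, as for all 710 miRNAs. Of 8 sensory and neural miRNAs 6 had a higher and 2 a lower mean in knockouts, with a median difference of 0.05. The brightest were miR-128, found in neurons and lymphocytes, with 9.62 ± 0.46 for knockouts against 9.59 ± 0.15 for wild types, and miR-124 of neurons, with 7.66 ± 0.28 for knockouts against 7.58 ± 0.26 for wild types (± SD over 6 arrays each). Others of the list, such as miR-9, miR-204 and miR-211, with mean levels of 5.71, 5.63 and 5.69, lay close to the level of an intensity of 0. Of 7 epithelial miRNAs 3 had a higher and 4 a lower mean, with a median difference of -0.02, and the brightest were miR-200c, with 10.03 ± 0.22 for knockouts against 10.33 ± 0.38 for wild types, and miR-205, with 7.16 ± 0.13 for knockouts against 7.12 ± 0.37 for wild types. Of 7 miRNAs of activated lymphocytes and T helper cells 5 had a higher and 2 a lower mean, with a median difference of 0.09. Here miR-21 had 10.91 ± 0.25 for knockouts against 10.83 ± 0.34 for wild types and miR-210 had 10.03 ± 0.39 for knockouts against 10.40 ± 0.41 for wild types, while miR-155, induced on lymphocyte activation, had a mean level of 6.50.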

How the data were processed

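The authors deposited a table of array intensities (710 miRNAs by 12 columns, linear scale, not normalized between arrays as its values show) and a value table of normalized intensities by mouse. Labelling was by microfluidic primer extension with biotin, per the labels' protocols. No source used here gives the scanner, the background method or the miRBase release. In the value table all columns share nearly 1 distribution with a floor of 1 (column medians 101, 103, 104, 101, 101 and 101 in knockouts 1 to 6 and 104, 101, 99.9, 99.7, 101 and 104 in wild types 1 to 6). Its columns matched the ranks of 1 intensity column each (Spearman 1.0, next best at most 0.952), so it is quantile-normalized. Its scale is linear and its direction that of intensity, and nothing shows centring.

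Intensities were quantile-normalized and transformed to log2(value + 50). The two-sided test was limma's (version 3.58.1 under R 4.3.3, lmFit and eBayes) on all 710 miRNAs, p-values were adjusted over all of them by Benjamini-Hochberg, and the threshold was 0.05. In the main fit genotype was fitted without sex because the wild-type columns of the intensity table carry none. Sex over both genotypes was fitted on the value table with genotype as a covariate. On that table genotype was also fitted with sex as a covariate. The differences were then -0.27, -0.15 and -0.04 for miR-183, miR-96 and miR-182, with limma's adjusted p of 0.58, 0.72 and 0.93. Correlations used 100000 permutations, or all of them within a genotype. The fits were tested on simulated data. Plots used Python 3.11.15 and matplotlib 3.10.9.

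Named were the members, the star strand, for each member the 3 miRNAs with the highest Pearson r, and the brightest 2 of each list, with counts for the rest. Of the markers only those beside a result are named. miR-9, miR-204, miR-211 and miR-155 were named after their values were seen. The members and the lists were chosen with earlier results of these data known. Alternatives were other normalizations, offsets of 1 and 200, array weights, a filter at the median level, a robust trended variance, an exact permutation test, blocks of columns, the value table and leaving out each array. The fits of sex over both genotypes as a result of its own, of sex in wild types and of the interaction were added after the data were seen. Same-numbered knockouts and wild types had correlated deviations of -0.12 to 0.18. These values show no pairing of mice by number, though they cannot exclude one.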

Additional observations from a re-analysis of the deposited data

Results flagged for a closer look

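No member of the cluster, and not miR-183*, had an array that stood far from the other 5 of its genotype by Dixon's criterion for the gap to the nearest array relative to the range. Over all miRNAs named, the members and miR-183* included, 5 such arrays appeared in 58 groups of 6 examined (8.62%). Chance gives about 1 in 20. Knockout array 6 was at 10.42 for miR-21, with the other knockouts at 10.90 to 11.10, and at 12.34 for miR-122, with the others at 6.68 to 8.41. Wild-type array 8 was at 13.11 for miR-223, with the others at 10.09 to 10.68. Wild-type array 9 was at 7.42 for miR-293*, with the others at 6.55 to 6.87. Knockout array 3 was at 8.48 for miR-214, with the others at 8.95 to 9.22.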

How the results depend on the processing

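No alternative took a member past the threshold for genotype or sex, and miR-183 was lower in knockouts under each alternative run for genotype (-0.53 to -0.11). The sign of some differences turned, and the causes were not tested. For genotype these were miR-96, at -0.15 in the main fit, with columns 1 to 8 and 9 to 12 as blocks or with columns 1 to 8 only (0.027 each). The other was miR-182, at -0.04 in the main fit, with array weights (0.018). The wild types among columns 1 to 8 are both males by the match of ranks, while the knockouts are of both sexes. For sex in knockouts they were miR-183, at -0.02 in the main fit, with an offset of 1 (0.085) and miR-96 without normalization (-0.024). That of miR-96 was 0.28 in the main fit, so it was not near 0. Correlations without normalization passed, at 0.68, 0.70 and 0.72. Signs turned for miR-183 with miR-96 at an offset of 200 (-0.013) and within wild types (-0.69), for miR-183 with miR-182 within wild types (-0.47), and for miR-96 with miR-182 under 75th percentile scaling (0.44) and within knockouts (0.034). Calls over all 710 miRNAs for sex in knockouts were 3 without normalization, 2 with an offset of 1, 1 with a trended robust variance and 1 with both genotypes of the value table. For sex over both genotypes calls were 0 with an offset of 1 and 0 with array weights, and for sex in wild types 0 with an offset of 1, against 1 each.

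Leaving out 1 array at a time gave -0.33 to -0.15 for miR-183, -0.20 to -0.073 for miR-96 and -0.12 to 0.030 for miR-182 by genotype, and 0 to 1 calls (miR-181b, without wild-type array 12). For sex in knockouts it gave -0.30 to 0.15 for miR-183 and -0.28 to 0.0043 for miR-182, for sex over both genotypes -0.30 to -0.093 for miR-183, 0.29 to 0.40 for miR-96, -0.11 to 0.038 for miR-182 and 0 to 5 calls, for sex in wild types -0.063 to 0.20 for miR-182 and 1 to 3 calls, and for the interaction -0.011 to 0.46 for miR-183, -0.19 to -0.0092 for miR-96 and -0.35 to -0.060 for miR-182. For correlations it gave -0.54 to 0.17 for miR-183 with miR-96, -0.15 to 0.10 for miR-183 with miR-182 and -0.15 to 0.25 for miR-96 with miR-182. The lone low value of -0.54 is without knockout array 3.

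With the replicate number as a block on the value table the differences were -0.27, -0.15 and -0.04 for miR-183, miR-96 and miR-182, and 0 miRNAs were called, as without the block; 3 of 12 mice correlated best with their own number. The filter at the median level removed all 3 members and so gave no value for them. Signal near the floor and the number of arrays limit each value.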
